A study of Mus musculus with 2 samples.

Results

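The expression of p53 and its target genes, a set of 10 genes named for their place in the p53 pathway, was examined in mouse embryonic stem (ES) cells with and without knockdown of the H3K4 demethylase KDM5B. The set holds *Trp53*, which encodes p53, and *Cdkn1a*, *Mdm2*, *Ccng1*, *Bax*, *Bbc3*, *Pmaip1*, *Sesn2*, *Phlda3* and *Trp53inp1*. Its genes were chosen by name from the 21935 gene symbols of the table, and all 10 were found with an RPKM (reads per kilobase of transcript and per mapped reads of the library) above 1 in both libraries. R1 ES cells, an established mouse line that carries no other named alteration in the labels, were infected with a lentivirus for a short hairpin RNA (shRNA) against luciferase (shLuc, the control) or against *Kdm5b* (shKdm5b), selected with puromycin and differentiated for 72 h without LIF, a cytokine that keeps ES cells self-renewing. The ES cells had been grown on irradiated mouse embryonic fibroblasts, and 1 library of polyadenylated RNA represents each condition. With 1 library per condition there is no replicate check, no test between conditions was possible, and the library and the knockdown cannot be told apart.

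p53 is a transcription factor that is stabilized by DNA damage and other stress and then switches on genes for cell cycle arrest, DNA repair and cell death. Its protein level is set largely by MDM2, a ubiquitin ligase that marks p53 for degradation and whose own gene is a p53 target, so the pathway carries a negative feedback loop. ES cells hold abundant p53, and the amount of *Trp53* transcript alone does not report the amount or the activity of the protein.

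The shLuc library had 78172698 mapped reads of 50 bases and the shKdm5b library had 72702698. The targeted gene *Kdm5b* had an RPKM of 104 in shLuc cells and 3.01 in shKdm5b cells, which is 2.88% of the control. All 12 pluripotency markers had an RPKM above 1 in both libraries, of which 1 was more than 1.5-fold higher (*Dppa5a*, RPKM 1096 in shLuc and 1651 in shKdm5b cells), 2 were lower (*Pou5f1*, 619 and 182, and *Esrrb*, 80.5 and 41.2) and 9 stayed within 1.5-fold, among them *Utf1* (444 and 362). Of all genes above 1 RPKM in at least 1 library, 16.3% were higher and 32.0% were lower. After the correction for GC content described further on, 3 markers were higher and 1 (*Pou5f1*) was lower, against 18.6% and 18.1% of all genes. *Esrrb* was then within 1.5-fold, at a log2 ratio of -0.31. The summed RPKM of the 12 markers was 3210 in shLuc and 3301 in shKdm5b cells, of which *Dppa5a* holds the most. Each gene of the p53 set had between 1075 and 49788 reads in a library, and intervals given here cover counting error only.

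The p53 set divided into genes that were higher and genes that were lower in shKdm5b ES cells. *Mdm2*, *Ccng1*, *Cdkn1a*, *Trp53inp1* and *Pmaip1* were more than 1.5-fold higher, and *Trp53*, *Sesn2*, *Phlda3* and *Bax* were more than 1.5-fold lower. *Bbc3* stayed within 1.5-fold. These 9 of 10 genes stand against a background of 48.3% of the 11804 genes with an RPKM above 1 in at least 1 library. By direction, 5 of 10 genes were higher against 16.3% of all genes, and 4 of 10 were lower against 32.0%. The median log2 ratio of shKdm5b to shLuc over the 10 genes was 0.08, and that over the 11804 genes was -0.21.

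The promoter windows of the set are shown first, because the set is named for the p53 pathway and its genes differed in direction as deposited. RefSeq sequences of the GRCm38.p6 build, from 250 bases before to 50 bases after a gene start, were at hand for 8 of the 10 genes in 11 windows, and not for *Pmaip1* and *Trp53inp1*. The windows were searched for the p53 half-site, which is 3 purines, a C, 2 bases that are A or T, a G and 3 pyrimidines, and which reads the same on both strands. A half-site lay in 5 of these 11 windows, each of another gene, and in 8.36% of all 32851 windows. None was found in the windows of *Sesn2*, *Phlda3* and *Bbc3*. In the stretches below, written from 5′ to 3′ on the strand of the gene, capitals mark the half-site and lower case the 30 bases on each side. All of these stretches lie upstream of the annotated start, outside the transcript.
Cdkn1a: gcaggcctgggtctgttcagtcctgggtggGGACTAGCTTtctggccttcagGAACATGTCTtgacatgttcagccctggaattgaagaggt
Mdm2: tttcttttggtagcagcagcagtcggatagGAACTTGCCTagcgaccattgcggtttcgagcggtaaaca
Ccng1: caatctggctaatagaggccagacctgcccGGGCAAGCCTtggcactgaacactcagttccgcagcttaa
Trp53: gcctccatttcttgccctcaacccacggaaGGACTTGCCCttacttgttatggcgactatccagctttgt
Bax: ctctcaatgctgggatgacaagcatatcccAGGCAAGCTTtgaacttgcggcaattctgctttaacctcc

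These stretches lie at chr17:29090876-29090967 on the plus strand (*Cdkn1a*, the upstream of its windows), chr10:117710905-117710974 on the minus strand (*Mdm2*), chr11:40755432-40755501 on the minus strand (*Ccng1*), chr11:69580254-69580323 on the plus strand (*Trp53*) and chr7:45467060-45467129 on the minus strand (*Bax*). The *Cdkn1a* stretch has a pair of half-sites 12 bases apart. A pair with a gap of at most 13 bases was found in 24 of all windows, which is 0.0731%. Half-sites were present upstream of 3 genes that were higher (*Cdkn1a*, *Mdm2* and *Ccng1*) and of 2 genes that were lower (*Trp53* and *Bax*) in shKdm5b ES cells. A match is a description of the letters and not evidence that p53 binds, and p53 elements outside these windows were not searched for.

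*Trp53* itself, on chromosome 11 from 69580359 to 69591873 (GRCm38, GENCODE M21), was the most highly expressed gene of the set in shLuc cells. Its RPKM was 202 (28021 reads) in shLuc cells and 133 (17190 reads) in shKdm5b cells. The log2 ratio, on the log2(RPKM + 0.1) scale used throughout, was -0.60 with a 95% counting interval of -0.63 to -0.57, so that the interval reaches across the 1.5-fold threshold. *Trp53* thus lay at the threshold, and 68.7% of all genes above 1 RPKM had a higher log2 ratio. A processed copy of the gene, *Trp53-ps*, shares 8.94% of the 50-base stretches of the *Trp53* transcript, and the RNA-Seq methods do not say how such reads were counted. For its ChIP-Seq reads the study set Bowtie to discard reads that map to several sites. The other RefSeq entry of *Trp53* gave nearly the same log2 ratio, -0.59.

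Of the genes that feed back on p53, *Mdm2* and *Ccng1* had the highest log2 ratios of the set. *Mdm2*, on chromosome 10 between 117688875 and 117710758, had an RPKM of 33.5 (7934 reads) in shLuc cells and 91.5 (20141 reads) in shKdm5b cells. Its log2 ratio was 1.45 (95% counting interval 1.41 to 1.49), and 1.67% of all genes lay above it. *Ccng1* encodes cyclin G1, which brings a phosphatase to MDM2, and lies on chromosome 11 from 40748552 to 40755311. *Ccng1* had an RPKM of 66.8 (18200 reads) in shLuc cells and 196 (49788 reads) in shKdm5b cells. Its log2 ratio was 1.56 (1.53 to 1.58), and 1.08% of all genes lay above it. By RPKM, *Ccng1* was the most highly expressed gene of the set in shKdm5b ES cells. Within a library, where no scaling between libraries enters, the ratio of *Mdm2* to *Trp53* RPKM was 0.166 for shLuc and 0.686 for shKdm5b. The related gene *Mdm4*, whose product also restrains p53, had an RPKM of 17.4 in shLuc cells and 14.7 in shKdm5b cells, which gives a log2 ratio of -0.24 (-0.30 to -0.18), within 1.5-fold.

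*Cdkn1a*, on chromosome 17 from 29090976 to 29100727, encodes p21, the cyclin-dependent kinase inhibitor through which p53 halts the cell cycle. Its RPKM was 16.4 (2452 reads) in shLuc cells, the lowest of the set, but 36.0 (4995 reads) in shKdm5b cells. The log2 ratio was 1.13 (1.06 to 1.20), which 4.34% of all genes exceeded. The other *Cdkn1a* entry had 2340 and 4932 reads and a log2 ratio of 1.18. A gene model of unknown status on the opposite strand covers 7.68% of the exon bases of *Cdkn1a*, and whether reads were counted by strand is not given in the sources used here.

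The growth control genes *Sesn2* and *Phlda3* were lower as deposited, and neither was past 1.5-fold after the correction for GC content described further on (log2 ratios of -0.45 and 0.21). *Sesn2*, on chromosome 4 from 132492032 to 132510501, encodes sestrin 2, which restrains mTORC1 signalling under stress. Its RPKM was 30.5 (6333 reads) in shLuc cells and 12.9 (2481 reads) in shKdm5b cells, which gives a log2 ratio of -1.24 (-1.31 to -1.18), the lowest of the set. Its paralogs *Sesn1* (log2 ratio 0.37) and *Sesn3* (log2 ratio -0.26), with RPKM between 7.22 and 10.7 in both libraries, stayed within 1.5-fold. *Phlda3*, on chromosome 1 from 135766119 to 135769136, encodes a small protein that competes with AKT for membrane lipids. *Phlda3* had an RPKM of 16.7 (1919 reads) in shLuc cells and 10.1 (1075 reads) in shKdm5b cells, which gives a log2 ratio of -0.73 (-0.84 to -0.62).

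The genes of cell death differed in direction as deposited, whereas after the GC correction *Bax* (0.02), *Bbc3* (0.49), *Pmaip1* (0.35) and *Trp53inp1* (0.54) all had log2 ratios above 0 and within 1.5-fold. *Bax*, on chromosome 7 from 45461697 to 45466898, encodes the protein that forms pores in the outer mitochondrial membrane, and had an RPKM of 130 (8822 reads) in shLuc cells and 74.5 (4708 reads) in shKdm5b cells. The log2 ratio of *Bax* was -0.80 (-0.85 to -0.75). Another annotated gene, *Gm45808*, shares 17.6% of the 50-base stretches of the *Bax* transcript on the same strand, so part of the *Bax* reads is uncertain. *Bbc3* and *Pmaip1* encode the BH3-only proteins PUMA and NOXA, which trigger apoptosis upstream of BAX. *Bbc3*, on chromosome 7 between 16308393 and 16318205, had an RPKM of 20.4 (3154 reads) and 14.0 (2017 reads) in the shLuc and shKdm5b libraries, a log2 ratio of -0.54 (-0.62 to -0.46) whose interval reaches past the 1.5-fold threshold. In contrast, *Pmaip1*, on chromosome 18 between 66458533 and 66465565, had an RPKM of 18.5 (3829 reads) and 30.1 (5816 reads), with a log2 ratio of 0.70 (0.65 to 0.77). The RPKM ratio of *Pmaip1* to *Bbc3* was thus 0.903 in shLuc cells and 2.15 in shKdm5b cells, a shift that turns with the GC correction, where *Bbc3* lies above *Pmaip1*. *Trp53inp1*, on chromosome 4 from 11156431 to 11174379, encodes a p53 partner with roles in cell death and autophagy. *Trp53inp1* had an RPKM of 45.9 (19337 reads) in shLuc cells and 97.8 (38347 reads) in shKdm5b cells, which gives a log2 ratio of 1.09 (1.07 to 1.12).

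**Figure D1:**
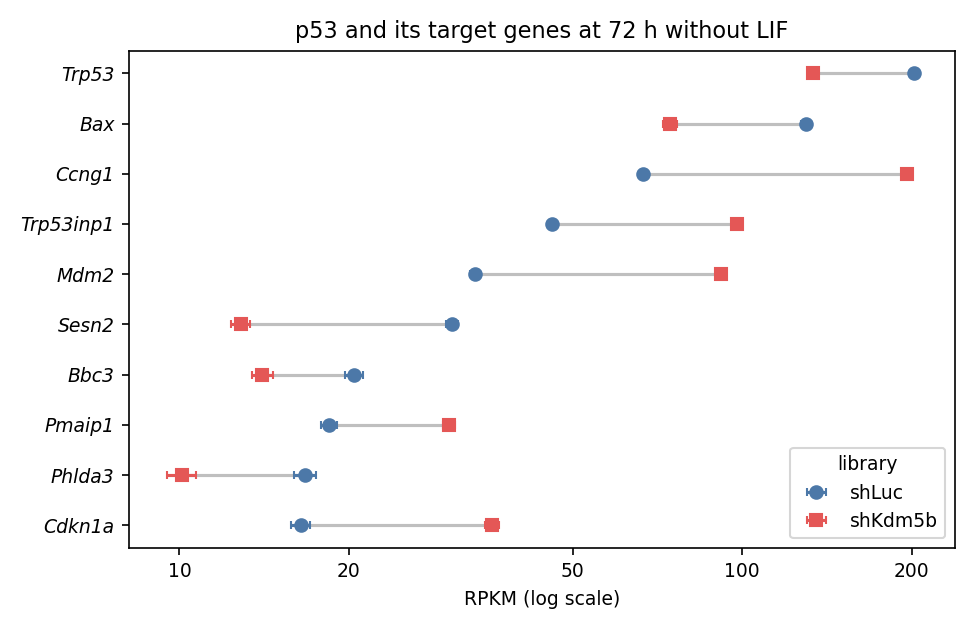
RPKM of the 10 genes (x axis, log scale) in the shLuc (circles) and shKdm5b (squares) libraries, 1 library each, with bars for the exact Poisson 95% interval of the reads. *Trp53* leads in shLuc cells at 202 and *Ccng1* in shKdm5b cells at 196, and *Cdkn1a* goes from the lowest level, 16.4, to the middle of the set, 36.0.

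The order of the genes by RPKM, which is per length and can be compared between genes, differed between the libraries. In shLuc ES cells it ran from *Trp53*, *Bax* and *Ccng1* through *Trp53inp1*, *Mdm2*, *Sesn2*, *Bbc3* and *Pmaip1* to *Phlda3* and *Cdkn1a*. In shKdm5b ES cells it ran from *Ccng1*, *Trp53* and *Trp53inp1* through *Mdm2*, *Bax*, *Cdkn1a*, *Pmaip1* and *Bbc3* to *Sesn2* and *Phlda3*. Of the 9 neighbouring pairs in each library, only *Phlda3* and *Cdkn1a* in shLuc cells had overlapping exact Poisson intervals (16.0 to 17.5 and 15.8 to 17.1), so these were not separated at this depth. *Ccng1* relative to *Bax* showed the widest shift among the 8 ratios between genes that were computed, from 0.514 in shLuc cells to 2.64 in shKdm5b cells. These ratios are not corrected for GC content, which is lower in *Ccng1* than in *Bax*, and among GC-corrected log2 ratios *Cdkn1a* (1.68) lies farther from *Bax* (0.02) than *Ccng1* (1.12) does.

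The log2 ratio between these libraries followed the GC content of the transcript over all genes, and the p53 set spans a wide range of GC content, from 38.8% (*Trp53inp1*) to 65.2% (*Bbc3*). Across 11535 genes above 1 RPKM with a known GC content, the Spearman correlation of GC content and log2 ratio was -0.53, and over the 10 genes of the set it was -0.65. Both are descriptions over genes of the same pair of libraries. *Sesn2* (58.7% GC), *Bax* (59.2%), *Phlda3* (62.6%) and *Bbc3* lie in the decile of genes with the highest GC content, where the median log2 ratio was -0.88 and 65.3% of genes were more than 1.5-fold lower. Of these, *Phlda3*, *Bax* and *Bbc3* had a log2 ratio above that median, and *Sesn2* below it. *Ccng1* (40.8%) and *Trp53inp1* lie in the decile with the lowest GC content, where the median was 0.48 and 41.8% of genes were more than 1.5-fold higher. In that decile 2.43% of genes had a higher log2 ratio than *Ccng1* and 14.7% a higher one than *Trp53inp1*.

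*Cdkn1a* and *Mdm2* were likewise among the highest genes of like GC content. *Cdkn1a*, at 54.6% GC, lies in a decile with a median log2 ratio of -0.59, where 5.89% of genes were more than 1.5-fold higher, and 1.47% of the genes of that decile had a log2 ratio above its own. *Mdm2*, at 46.3% GC, lies in a decile with a median of 0.10, of which 2.51% had a higher log2 ratio. *Pmaip1* (42.1%) was exceeded by 24.4% of its decile, and *Trp53* (54.1%), at -0.60 against a median of -0.50, by 56.5% of its own.

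**Figure D2:**
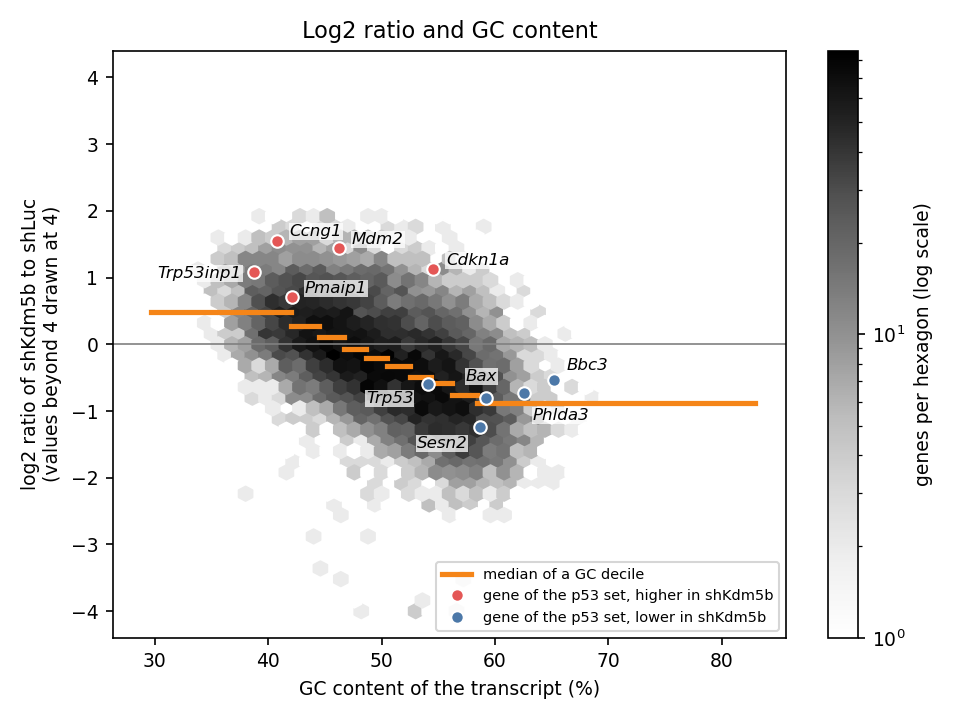
Log2 ratio of shKdm5b to shLuc (y axis) against the GC content of the transcript in percent (x axis) for 11535 genes (grey hexagons, darker for more genes), with the median of each GC decile (orange lines) and the 10 genes of the p53 set (points). The medians run from 0.48 to -0.88, *Bax*, *Phlda3* and *Trp53* sit near them, and *Cdkn1a*, *Mdm2* and *Ccng1* sit well above.

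When the dependence on GC content was taken out with a smoothed curve over all genes, *Cdkn1a* (log2 ratio 1.68), *Mdm2* (1.36) and *Ccng1* (1.12) stayed more than 1.5-fold higher. No gene of the set was more than 1.5-fold lower after this correction, with *Sesn2* at -0.45 and *Trp53* at -0.08, while *Bax* (0.02), *Phlda3* (0.21) and *Bbc3* (0.49) had values above 0. *Trp53inp1* (0.54) and *Pmaip1* (0.35) came within 1.5-fold. These 3 higher genes of 10 stand against 18.6% of all genes, and the 0 lower genes against 18.1%. A further correction for transcript length left *Cdkn1a* at 1.63, *Mdm2* at 1.46 and *Ccng1* at 1.25, brought *Trp53inp1* to 0.73 and gave 4 higher genes against 15.4% and 0 lower genes against 16.4% of all genes. *Bax*, with the shortest entry of the set (869 bases), was at -0.57 there. The shKdm5b values were scaled, without GC correction, so that the median gene above 1 RPKM in both libraries had a log2 ratio of 0. This took out a median of -0.17 and raised the log2 ratios of the set. There were then 5 higher genes against 22.1% and 2 lower genes (*Sesn2* and *Bax*) against 25.3%. *Trp53* (-0.43) and *Phlda3* (-0.56) were within 1.5-fold. In an edgeR exact test that assumes a dispersion of 0.04 between cultures, 0 of the 10 genes passed an FDR of 0.001 on top of the thresholds, against 0.898% of all genes higher and 1.41% lower. All 9 genes passed it at a dispersion of 0, and the true variation between cultures was not measured.

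**Figure D3:**
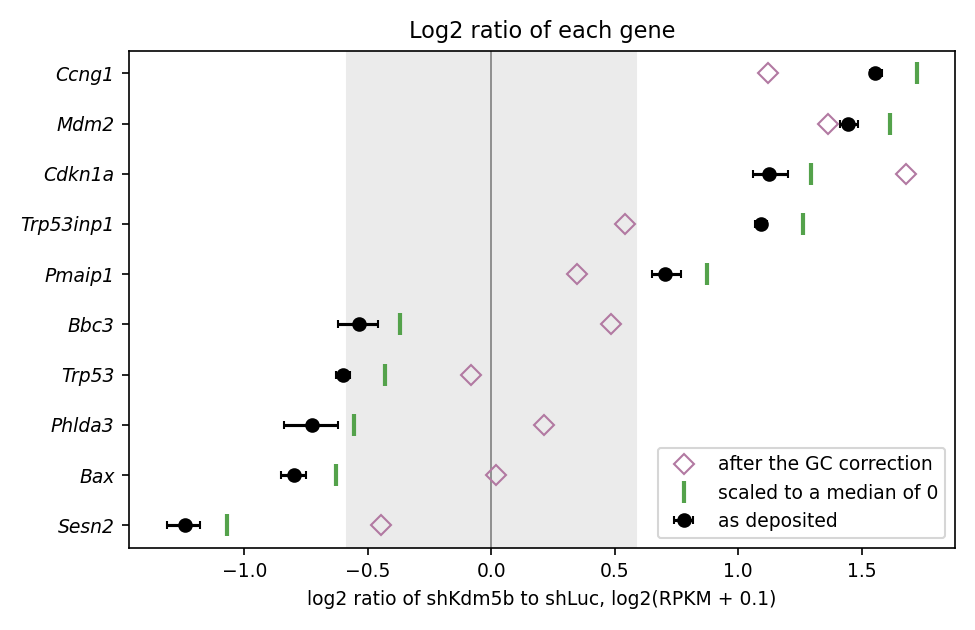
Log2 ratio of shKdm5b to shLuc for each gene (x axis) as deposited (black points with 95% counting intervals), after scaling to a median log2 ratio of 0 (green bars) and after the GC correction (open diamonds), with the range within 1.5-fold in grey. *Ccng1*, *Mdm2* and *Cdkn1a* lie right of the grey range in all of them, and the lower genes move into it after the GC correction.

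The regulators of p53 outside the set lay on both sides. Of 31 listed regulators, 30 had an RPKM above 1 in at least 1 library, of which 5 were higher, 5 were lower and 20 stayed within 1.5-fold, with a median log2 ratio of 0.11. All genes above 1 RPKM had 16.3% higher and 32.0% lower. The share of higher regulators was thus near that background, and the share of lower ones was below it. With scaling to the median, 9 regulators were higher and 5 were lower, against 22.1% and 25.3% of all genes. With scaling to the 75th percentile, 10 were higher and 5 were lower. The higher regulators were *Twist1*, a transcription factor that inhibits p53 (log2 ratio 1.80, RPKM 1.95 and 7.05), *Rpl5*, a ribosomal protein that binds MDM2 (1.06), *Rchy1*, a ubiquitin ligase for p53 (0.77), *Chek1*, a DNA damage checkpoint kinase (0.74), and *Setd7*, a lysine methyltransferase (0.62). *Trim28*, a corepressor that works with MDM2, had the highest expression of the list in shLuc cells and the lowest log2 ratio of the list. Its RPKM was 476 in shLuc cells and 145 in shKdm5b cells (-1.72, 95% counting interval -1.74 to -1.70). *Daxx*, a histone chaperone that binds MDM2 (-1.23), *Cdkn2a*, whose entry encodes an inhibitor of MDM2 or of CDK4 (-1.03), *Trp53rk*, a kinase with near-identical copies in the annotation and an uncertain count (-1.02), and *Atm*, the kinase that reports DNA breaks (-0.89), were also lower. *Rpl11*, another ribosomal protein that binds MDM2, had a log2 ratio of 0.46. Of the 29 regulators with known GC content, 12 were higher and 5 lower after the GC correction, against 18.6% and 18.1% of all genes. *Trim28* (-0.88), *Daxx* (-0.64) and *Atm* (-1.19) were among the lower ones. *Cdkn2a* (-0.18) and *Chek1* (0.23) were then within 1.5-fold, and the other named regulators past the thresholds stayed past them.

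Other p53 target genes were also divided. Of 46 listed targets, 41 had an RPKM above 1 in at least 1 library, of which 7 were higher, 9 were lower and 25 stayed within 1.5-fold, with a median log2 ratio of -0.17. The share of higher targets was near the 16.3% of all genes, and 32.0% of all genes were lower. With either scaling 11 targets were higher and 9 were lower, and scaling to the median gave 22.1% and 25.3% of all genes. *Perp*, a membrane protein of cell adhesion and p53-dependent death, had the highest log2 ratio, 2.10 (95% counting interval 2.01 to 2.25), with 681 reads in shLuc cells and 2767 in shKdm5b cells. It was followed by *Polk*, a translesion DNA polymerase (1.45), *Plk2*, a polo-like kinase (1.42), *Tnfrsf10b*, a death receptor (1.08), *Gadd45a*, a growth arrest and DNA damage gene (1.04), *Rrm2b*, the p53-induced subunit of ribonucleotide reductase (0.74), and *Pltp*, a phospholipid transfer protein (0.66). *Dram1*, an autophagy gene, had the lowest log2 ratio, -2.19, with 245 reads in shLuc cells and 34 reads in shKdm5b cells. The other lower targets with the largest differences were *Pidd1*, a death domain protein listed under its older symbol *Lrdd* (-1.47), *Trp53i13* (-1.41), *Tsc2*, an inhibitor of mTORC1 (-1.30), *Xpc*, a sensor of DNA lesions (RPKM 6.15 and 3.02), *Pml*, the organizer of nuclear bodies (RPKM 71.5 and 35.6), *Steap3* (-0.97) and *Ei24* (-0.96). Among the most highly expressed targets, *Ckap2* (0.52) and *Gtse1* (-0.43), both mitotic genes, stayed within 1.5-fold. After the GC correction 11 targets were higher and 4 were lower, against 18.6% and 18.1% of all genes. *Perp* was at 2.16, *Plk2* at 1.47, *Gadd45a* at 1.23 and *Dram1* at -2.22. Of the named targets past the thresholds, *Xpc* (-0.57), *Trp53i13* (-0.49), *Steap3* (-0.41), *Pml* (-0.40) and *Rrm2b* (0.25) were then within 1.5-fold. The others stayed past it. In the edgeR test at a dispersion of 0.04, *Twist1*, *Perp* and *Dram1* passed from the regulator and target lists.

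**Figure D4:**
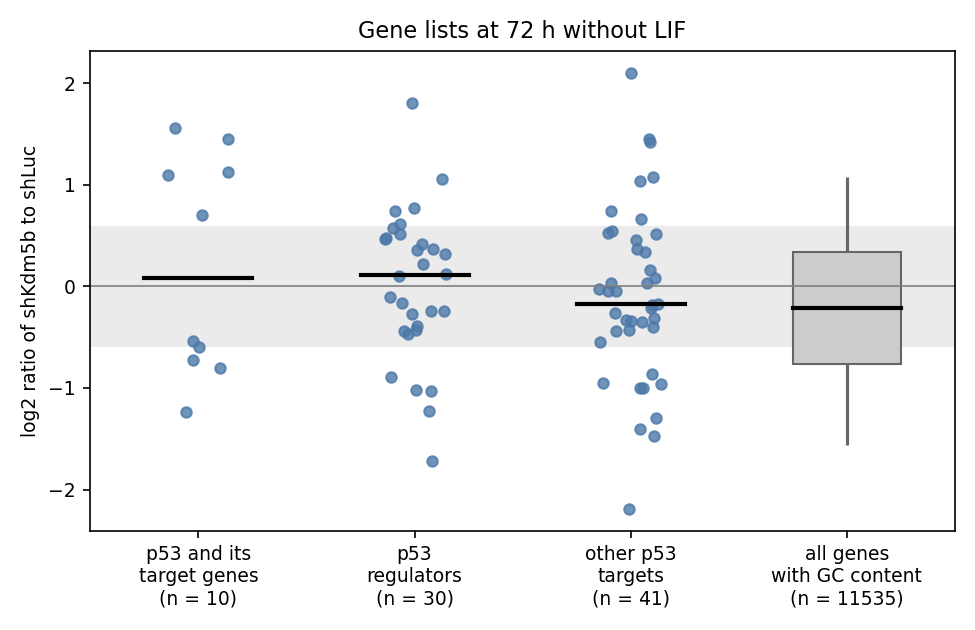
Log2 ratio of shKdm5b to shLuc (y axis) for each gene of the p53 set, the p53 regulators and the other p53 targets above 1 RPKM (points, with the median as a black line), and for 11535 genes above 1 RPKM with known GC content (box from the 25th to the 75th percentile, whiskers from the 5th to the 95th, line at the median). The medians are 0.08, 0.11, -0.17 and -0.21, the band within 1.5-fold is grey, and all 3 lists spread to both sides of it.

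Markers of other cells were measured beside these values, since the ES cells had been kept on irradiated fibroblasts and were differentiating. For differentiation the study moved cells to gelatin-coated or low-attachment dishes, which is a step away from the feeder layer. Of 20 fibroblast markers, 3 had an RPKM above 1, *Mmp2* (10.2 in shLuc and 6.95 in shKdm5b cells), *Thy1* (4.08 and 4.59) and *Acta2* (1.91 and 1.18), and the list summed to 20.1 RPKM in shLuc cells and 15.8 in shKdm5b cells. The other 17 were below 1 RPKM in both libraries, among them the collagen genes *Col1a1* (0.474 and 0.395), *Col1a2* (0.142 and 0.201) and *Col5a2* (0.396 and 0.0478), *Col3a1* with 15 and 17 reads, and the receptor gene *Pdgfra* (0.508 and 0.113). With no RPKM filter, 7 of the 20 were more than 1.5-fold lower and 2 were higher. In that setting 7638 gene symbols were past 1.5-fold in either direction, among those of the 21935 that had any reads. A share by direction was not computed for that setting. Some of these markers had few reads, and 1 of the lower ones had 6 reads in shLuc cells and 0 in shKdm5b cells. Endoderm markers summed over 10 genes to 48.4 RPKM in shLuc cells and 18.4 in shKdm5b cells. Those above 1 RPKM in both libraries were *Dab2* (18.5 and 3.15) and *Lamb1* (17.4 and 13.7, within 1.5-fold). *Cubn* (5.56 and 0.149), *Gata4* (2.58 and 0.539), *Lama1* (1.38 and 0.175) and *Gata6* (1.01 and 0.258) were above 1 RPKM in shLuc cells alone. In these bulk libraries fewer cells of a type and less RNA per cell cannot be told apart, and the part of fibroblasts and endoderm cells in the values of the p53 set was not tested.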

How the data were processed

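RNA-Seq of polyadenylated RNA was analysed in 1 shLuc and 1 shKdm5b library. The authors deposited, for each of 27405 RefSeq entries, the read count, the length and the RPKM, and a file of mapped reads for each library. The deposited RPKM values equal count over length and over the number of mapped reads. The submitters' processing notes name CASAVA 1.0, Bowtie 0.12.7 and mm8 without a role, and the counting program is not given in the sources used here. A further column of small whole numbers was not used.

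Samples were grouped by their titles. Each symbol was represented by the entry whose mean RPKM was highest, and log2 ratios used a pseudocount of 0.1 RPKM. Genes past the thresholds differed by more than 1.5-fold, the study's fold change, with an RPKM above 1 in at least 1 library. Counting intervals (95%) are exact, Clopper-Pearson on the reads of both libraries for ratios and Poisson for levels. They omit the pseudocount and cover counting error only, since reads are not independent molecules. The study names edgeR, whose FDR cannot allow for variation between cultures with 1 library each, so edgeR 4.0.16 (R 4.3.3) with an assumed dispersion of 0 or 0.04 was an alternative that compares the libraries, not the conditions.

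GC content came from GENCODE M21 transcripts (GRCm38) through the RefSeq accession for 97.7% of genes above the RPKM threshold, and was corrected with a lowess curve (fraction 0.3, statsmodels 0.14.6). GRCm38 positions describe the genes and not the alignment. Ratios and intervals were computed with SciPy 1.17.1, NumPy 2.4.6 and pandas 2.3.3 under Python 3.11.15 and tested on simulated data. The genes of the set, the lists and the alternatives were chosen with earlier results of these data known. Named genes are the whole set, *Kdm5b*, listed regulators and targets past the thresholds (at most 8 per direction) and the 3 most highly expressed of each list, marker lists included. *Mdm4*, *Sesn1*, *Sesn3*, *Col1a1*, *Col1a2*, *Col3a1*, *Col5a2*, *Pdgfra*, *Esrrb*, *Gata4*, *Gata6* and *Lama1* were named after their values were seen.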

Additional observations from a re-analysis of the deposited data

How the results depend on the processing

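No paired analysis was possible because there is 1 library per condition, nor could a replicate be left out. The number of genes of the p53 set past the thresholds, 9, was between 7 and 9 under both other pseudocounts, both scalings, summed entries, both other RPKM filters, the counting interval and edgeR at a dispersion of 0. It was 5 with a fold change above 2, 3 with GC corrected, 4 with GC and length corrected and 0 with edgeR at a dispersion of 0.04. Over all genes, 5702 of 11804 were past the thresholds, 2688 with a fold change above 2 and 272 with edgeR at a dispersion of 0.04. With GC corrected 4228 of 11535 genes were past them, and with GC and length corrected 3668. The same totals apply to the regulators and targets below. The median log2 ratio of the set, 0.08, was 0.25 and 0.27 after scaling to the median and to the 75th percentile, and 0.42 after either correction. *Phlda3*, at -0.73, became 0.21 with GC corrected and 0.016 with GC and length corrected, and *Bax*, at -0.80, became 0.021 after the GC correction. *Bbc3*, at -0.54, became 0.49 with GC corrected and 0.45 with GC and length corrected. For the regulators, 10 genes became 6 with a fold change above 2, 17 after either correction and 1 at a dispersion of 0.04, and their median of 0.11 became 0.28 and 0.30 after the scalings, 0.26 with GC corrected and 0.41 with GC and length corrected. For the other targets, 16 genes became 2 at a dispersion of 0.04, and their median of -0.17 became -0.0097 and 0.011 after the scalings, 0.19 with GC corrected and 0.17 with GC and length corrected. The 1 fibroblast marker past the thresholds became 0 with a pseudocount of 1, after either scaling, with a fold change above 2, with the counting interval and with edgeR at either dispersion, 3 with summed entries and 9 with no RPKM filter. The scalings and corrections re-centre all genes by construction, and the cause of the other changes was not tested. Summed entries count shared reads more than once. At this depth the counting intervals of *Trp53* and *Bbc3* reach across the 1.5-fold threshold, and variation between cultures was not measured.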
